A study of Mus musculus with 2 samples.

Results

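Regulatory T cells (Tregs) were examined in heart grafts of the Bm12 strain, which differ from C57BL/6 (B6) recipients in an MHC class II molecule and undergo chronic rejection. The cells were taken by the annotation that the authors deposited for each cell: 263 of 4441 annotated cells (5.92%) carried the label Treg. Cells isolated from 6 grafts, annotated fibroblasts among them, were hashtagged, pooled and sequenced as 1 single-cell library at day 14 after transplantation. Hearts 1, 2 and 3 were wild-type Bm12 grafts (IL-33+), and hearts 4, 5 and 6 were Bm12 grafts deficient in IL-33 (IL-33-). Donors and recipients were male and all recipients were wild-type B6, so cells of recipient origin could carry *Il33* in both groups and its transcript in Tregs did not check the graft labels. Because all hearts shared 1 capture and sequencing run, no batch could be told apart, and no cell barcode was present more than once. Per the study's methods the cells of each heart digest were hashtagged before pooling. Any difference in that handling could not be told apart from the heart.

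Tregs are CD4+ T cells defined by the transcription factor FOXP3, and they restrain other lymphocytes through CTLA-4, IL-10 and the capture of IL-2 by CD25. Tregs in non-lymphoid tissue often carry ST2 (*Il1rl1*), the receptor for the alarmin IL-33, together with GATA3, and can secrete amphiregulin (*Areg*), a ligand of the epidermal growth factor receptor known for its part in tissue repair. Group 2 innate lymphoid cells (ILC2) lack a T cell receptor but also use ST2, GATA3 and amphiregulin, and they are a known source of IL-5.

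Tregs numbered 27, 25 and 98 in hearts 1, 2 and 3 and 55, 25 and 33 in hearts 4, 5 and 6. They held 76543 to 310503 unique molecular identifiers (UMIs, 1 per captured transcript) per heart, and the median Treg held 2860 UMIs. Median UMIs per Treg ranged from 2377 to 3200 over the hearts and the median share of mitochondrial UMIs from 4.01% to 5.95%. Tem/eff cells were deeper, at a median of 5693 UMIs. Levels are given below in CPM, a gene's UMIs scaled to the total of the cell, averaged over the Tregs of a heart, and the heart was the replicate throughout (n = 3 a group).

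The label was first compared with 6 Treg markers. Tregs had the highest level of *Foxp3* of the 14 annotated types, at 132 ± 68.2 CPM (SD, n = 6 hearts), followed by Tem/eff cells at 40.1 ± 25.0 CPM. *Ctla4*, the coinhibitory receptor, reached 1551 ± 467 CPM in Tregs against 715 ± 169 CPM in Tem/eff cells. *Tnfrsf18*, encoding GITR, reached 518 ± 122 CPM against 348 ± 56.1 CPM. These 3 genes therefore set Tregs apart most clearly. *Il2ra*, encoding CD25, reached 314 ± 118 CPM against 285 ± 39.1 CPM, and *Tnfrsf4*, encoding OX40, was at 759 ± 141 CPM against 711 ± 85.2 CPM, so for both the distance between the types was within the spread of hearts. *Ikzf2*, encoding Helios, differed from the others: its level was 703 ± 220 CPM in Tregs but 892 ± 225 CPM in central memory (Tcm) cells. The annotation was made from the expression of these same cells, so these values describe the label and were not tested.

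**Figure D1:**
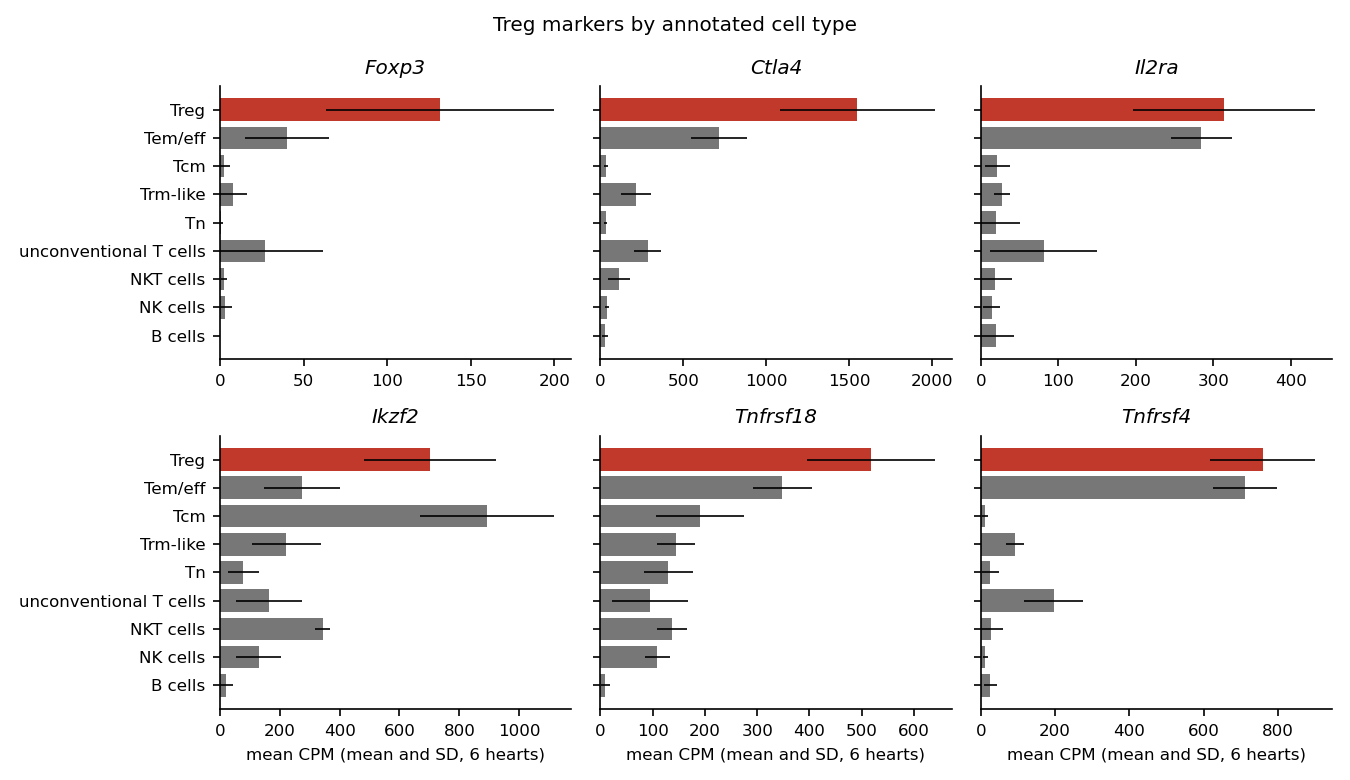
Mean level (CPM, x axis) of 6 Treg markers in Tregs (red) and 8 other annotated lymphocyte types (gray); bars are means over 6 hearts and lines the SD. *Foxp3*, *Ctla4* and *Tnfrsf18* were highest in Tregs, whereas *Il2ra* and *Tnfrsf4* were close to the Tem/eff level and *Ikzf2* was highest in Tcm cells.

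At least 1 *Foxp3* UMI was read in 51 of 263 Tregs (19.4%, exact 95% interval 14.8% to 24.7%). In B cells, which should lack *Foxp3*, it was read in 0 of 286 cells at a median of 2292 UMIs, which allows a share of up to 1.05%. *Il1rl1* was read in 40 Tregs (15.2%) and 0 B cells, *Areg* in 43 Tregs (16.3%) and 2 B cells (0.699%), and *Il2ra* in 76 Tregs (28.9%) and 9 B cells (3.15%). All 4 shares in Tregs thus lay above those in B cells. Of the T lineage genes, *Cd3e* was read in 175 Tregs (66.5%) and *Cd4* in 155 (58.9%), and *Cd8a* in 14 (5.32%). Intervals and limits at 0 cover counting error only.

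Beyond the markers, the genes that stood furthest above the next annotated type (among those at 50 CPM or more and read from at least 30 UMIs, with 10 CPM added to both levels) were led by *Il1rl1*, whose mean was 456 ± 270 CPM against 42.9 CPM in Tem/eff cells. *Il5* was second, at 165 ± 244 CPM, and *Areg* was eighth, at 280 ± 311 CPM against 115 CPM in Tem/eff cells. Their SDs were large, and hearts 2, 3 and 6 supplied 9, 93 and 76 of the 178 *Il5* UMIs. *Il10*, an immunosuppressive cytokine, was at 385 ± 125 CPM against 134 CPM. *Maf*, a transcription factor that controls *Il10*, was at 1472 ± 123 CPM against 669.5 CPM. *Icos*, a costimulatory receptor, was at 973 ± 202 CPM against 497 CPM. *Penk*, encoding the opioid precursor proenkephalin, was read in 21 Tregs, at 130 ± 223 CPM against 48.4 CPM, and *Peg10* in 4 Tregs.

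A small group of cells carried the label Treg together with several ILC2 markers. At least 3 of 7 ILC2 markers (*Gata3*, *Klrg1*, *Il17rb*, *Ptgir*, *Hs3st1*, *Calca* and *Il5*) were read in 16 of 263 Tregs (6.08%). They numbered 0, 4 and 7 in hearts 1, 2 and 3 and 0, 1 and 4 in hearts 4, 5 and 6, or 7.71 ± 8.02% of Tregs in IL-33+ and 5.37 ± 6.18% in IL-33- hearts (SD, n = 3; two-sided exact permutation test, p = 0.8, where 0.1 is the smallest p that 3 against 3 hearts allow). The groups overlapped. Of the 16 cells, 8 held no UMI of *Cd3d*, *Cd3e*, *Cd3g* or *Trac*, against 14 of the other 247 Tregs. The other 8 held such a UMI, so ILC2-marked is used below for the markers and not as the name of a cell type.

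These 16 cells held a large part of the type 2 transcripts among annotated Tregs, but few of those of *Foxp3* (3 of 88 UMIs), *Ctla4* (9 of 1188), *Maf* (4.28%) or *Il10* (0.623%). They contained 178 of 178 *Il5* UMIs, 13 of 18 *Il13* UMIs, 182 of 379 *Il1rl1* UMIs (48.0%), 128 of 252 *Areg* UMIs (50.8%) and 260 of 580 *Gata3* UMIs (44.8%). *Il5* and *Gata3* were among the markers that chose the cells, whereas *Il1rl1*, *Areg* and *Il13* were not. *Kit*, the stem cell factor receptor, was read in 10 of the 16 cells and in 3 of the other 247, and *Lmo4*, a transcriptional cofactor, in 11 and 29. *Csf2* was read in 3 of the 16 and 0 of the 247. The Treg genes went the other way: *Foxp3* was read in 1 of 16 cells (6.25%) against 50 of 247 (20.2%), *Ctla4* in 31.2% against 74.1%, *Izumo1r*, encoding folate receptor 4, in 6.25% against 45.3%, *Lag3* in 12.5% against 55.1% and *Cd4* in 18.8% against 61.5%. *Tnfrsf18* (87.5% against 60.7%) and *Il2ra* (68.8% against 26.3%) were read in more of the 16 cells, which were somewhat deeper (median 3477 UMIs against 2846). With so few cells, and groups of cells defined by their own transcripts, these shares are a description without a test.

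**Figure D2:**
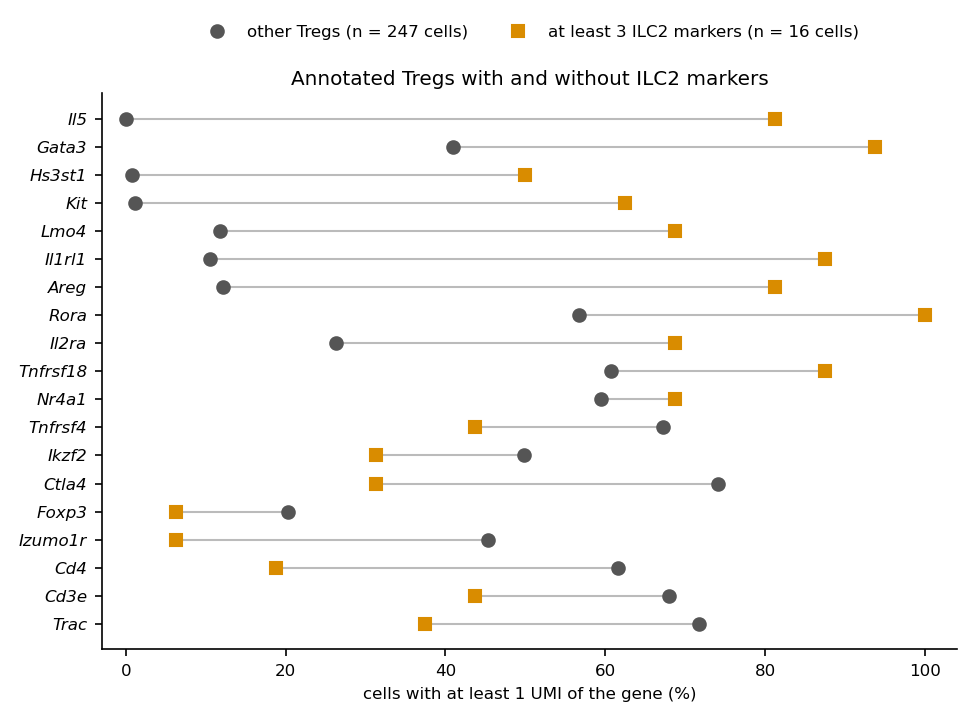
Share of cells (%, x axis) with at least 1 UMI of each gene among the 16 annotated Tregs with at least 3 ILC2 markers (orange squares) and the other 247 (gray circles). *Il1rl1* and *Areg* lie far to the right in the 16 cells, and *Ctla4*, *Foxp3*, *Izumo1r*, *Cd4* and *Trac* lie to the left.

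*Areg* and *Il1rl1* were read together in some Tregs. Of 43 Tregs with an *Areg* UMI, 17 (39.5%) also had an *Il1rl1* UMI. Without the 16 ILC2-marked cells this was 6 of 30, against 26 of all 247 (10.5%) with an *Il1rl1* UMI, and 8 of those 30 had a *Foxp3* UMI. Among the 26 remaining Tregs with an *Il1rl1* UMI, 12 (46.2%) had a *Foxp3* UMI, against 50 of all 247 (20.2%). The median depth of these 26 cells, 2888 UMIs, was close to that of the 247.

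The first question of the design was whether Tregs made up a different part of the cells without graft IL-33. All cells here included those annotated as fibroblasts, which are not infiltrate. By the paper's counts most of these came from heart 3. Tregs were 3.12%, 10.9% and 5.88% of all cells in hearts 1, 2 and 3 and 6.58%, 8.80% and 5.90% in hearts 4, 5 and 6, or 6.62 ± 3.93% against 7.10 ± 1.52% (SD, n = 3). Heart 1 had the lowest and heart 2 the highest share, so the IL-33+ hearts enclosed all 3 IL-33- hearts. Of the 5 annotated types Treg, Tn, Tcm, Tem/eff and Trm-like together, Tregs were 12.1%, 24.8% and 23.3% in IL-33+ and 16.1%, 15.2% and 15.7% in IL-33- hearts. Neither share differed beyond the spread between hearts (two-sided exact permutation test, p = 0.8 and p = 0.4, both 0.8 after Benjamini-Hochberg adjustment over the 2 shares). The first difference was -0.47 and the second 4.37 percentage points, and leaving out heart 1 turned the first to 1.28.

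The next question was whether fewer Tregs carried the IL-33 receptor, amphiregulin or the Treg markers without graft IL-33. Each Treg was thinned to 1509 UMIs, the total of the shallowest Treg, and the expected share with a UMI was taken. For *Areg* the shares were 9.25%, 27.5% and 15.3% in IL-33+ hearts and 4.83%, 3.82% and 13.4% in IL-33- hearts. Heart 1 lay below heart 6, so the groups overlapped (difference 10.0 percentage points, two-sided exact permutation test over 3 against 3 hearts, p = 0.2). The unthinned shares were 14.8%, 32% and 19.4% against 7.27%, 4.00% and 21.2%. Without the ILC2-marked cells the thinned shares were 9.25%, 14.9% and 12.9% against 4.83%, 0% and 8.39%, the groups no longer overlapped and p was 0.1, the smallest value this exact test allows. In heart 5, 0 of 24 such cells held an *Areg* UMI, which allows a share of up to 12.5%.

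For *Il1rl1* the thinned shares were 11.8%, 22.0% and 13.4% in IL-33+ and 7.13%, 7.74% and 20.1% in IL-33- hearts. Heart 6 lay among the IL-33+ hearts (difference 4.07 percentage points, exact permutation test, p = 0.5). Without the ILC2-marked cells they were 11.8%, 7.22% and 8.89% against 7.13%, 4.17% and 10.0%, and heart 6 still lay among the IL-33+ hearts (difference 2.18 percentage points, p = 0.4 by the same exact test). For *Foxp3* they were 18.2%, 9.69% and 7.73% against 24.5%, 11.5% and 10.3% (difference -3.53, p = 0.5 by the same exact test), and for *Il2ra* 24.9%, 26.7% and 15.8% against 18.4%, 24.2% and 28.1% (difference -1.09, exact p = 0.7). Among all Tregs, none of the 4 genes differed beyond the spread between hearts, with Benjamini-Hochberg adjusted values of 0.667 to 0.7. Without the ILC2-marked cells the lowest adjusted value of the exact test was 0.4, for *Areg*.

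Levels across the transcriptome were then compared between IL-33+ and IL-33- hearts with limma. Of 7275 genes tested, 0 were called at an adjusted p of 0.05 (0%), 371 reached an unadjusted p of 0.05 (5.10%), and limma-voom on the recovered UMIs also called 0. Unadjusted p values of 0.05 or less came with a higher level in IL-33+ hearts for 193 genes (2.65%) and a lower one for 178 (2.45%). The 3 hearts of each group did not overlap for 294 genes that were higher (4.04%) and 435 that were lower (5.98%). All gene values below are therefore levels of genes that did not pass the adjusted test, set beside these background shares. Leaving out heart 1 gave 8 calls, *Areg*, *Btg2*, *Cxcr4*, *Egr1*, *Gadd45b*, *Hist1h1c*, *Ier2* and *Nr4a1* (a list known only after its values were seen), all higher in hearts 2 and 3.

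*Areg* (chromosome 5 of GRCm38, 91139599 to 91148432) was at 81.1, 856 and 379 CPM in hearts 1, 2 and 3 and at 36.6, 68.3 and 261 CPM in hearts 4, 5 and 6. Hearts 2 and 3 exceeded every IL-33- heart, whereas heart 1 lay within their range. The mean was 439 ± 391 CPM against 122 ± 122 CPM (log2 fold change 1.65 ± 0.53 SE, limma adjusted p = 0.739). Without the ILC2-marked cells the log2 fold change was 1.84, and without heart 2 it was 0.92. *Il1rl1* (chromosome 1, 40429570 to 40465415) was at 305.2, 578 and 611 CPM against 169, 213 and 859 CPM (log2 fold change 0.58 ± 0.37), and its sign turned to -0.14 without the ILC2-marked cells. The sign of this fold change therefore depended on these few cells, whereas the share of Tregs with an *Il1rl1* UMI remained higher in IL-33+ hearts on average without them.

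Few transcripts of other genes of interest in this setting were read. *Il13*, the type 2 cytokine, gave 14 UMIs in IL-33+ and 4 in IL-33- hearts, *Ccl1*, the ligand of CCR8, 14 and 3, and *Ltb4r1*, the leukotriene B4 receptor, 16 and 2. *Slamf1*, an adhesion and signaling receptor, gave 38 and 15 UMIs. None of these 4 separated the hearts. Of 20 genes listed for the IL-33 receptor, type 2 function and repair, 15 were tested and 0 were called. Of these, 1 (*Areg*) reached an unadjusted p of 0.05, beside 5.1% of all genes, and 0 had hearts that did not overlap, beside 10.0%. Their median log2 fold change was 0.50, against -0.02 over all genes tested, and 0.28 without the ILC2-marked cells. The summed level of the 20 genes was 3427, 6331 and 6084 CPM in IL-33+ and 2966, 5165 and 7762 CPM in IL-33- hearts. That of the 7 ILC2 markers was 727, 1532 and 1505 CPM in IL-33+ and 417, 497 and 2118 CPM in IL-33- hearts. The lists share *Il5*, so their sums are not independent, and a relation between them was not tested. *Id2*, which ILC2 also require, was at 1398, 2378 and 1951 CPM against 1481, 3247 and 3259 CPM.

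The Treg identity genes gave no separation of the groups. *Foxp3* (chromosome X, 7573644 to 7595245) was at 156, 110 and 68.9 CPM in IL-33+ and 255, 76.1 and 124 CPM in IL-33- hearts (log2 fold change -0.32 ± 0.40 SE, limma adjusted p = 0.979). *Ctla4* was at 1462, 1372 and 1376 CPM against 2467, 1130 and 1502 CPM. *Ikzf2* was at 477, 622 and 642 CPM against 1037, 905 and 532 CPM, the 2 highest values being IL-33- hearts (log2 fold change -0.46 ± 0.24). *Il2ra* was at 459, 299.7 and 236 CPM against 141, 326 and 422 CPM. *Tnfrsf18* was at 614, 401 and 335 CPM against 615, 532 and 610 CPM, and *Tnfrsf4* was at 832, 682 and 607 CPM against 1005, 739 and 690.1 CPM. Of 16 listed identity genes 15 were tested, 10 had a fold change below 0 and 0 had hearts that did not overlap. *Nrp1*, encoding neuropilin-1, alone reached an unadjusted p of 0.05, with the higher level in IL-33+ hearts, beside 2.65% of all genes. Of 16 tested genes of suppression and coinhibition, only *Fgl2*, a secreted suppressor molecule, did not overlap, at 416, 432 and 498 CPM against 315, 367 and 386 CPM. Over all genes tested, hearts did not overlap for 4.04% as higher and 5.98% as lower.

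A common direction was seen for genes induced within minutes to hours of T cell receptor or stress signaling. All 30 listed immediate early and T cell receptor response genes were tested, and all 30 had a fold change above 0, with a median log2 fold change of 0.67 against -0.02 over all genes. A total of 13 reached an unadjusted p of 0.05 with the higher level in IL-33+ hearts, beside 2.65% of all genes, and 0 the reverse. In 10 the hearts did not overlap, all higher, beside 4.04% of all genes: *Egr2*, *Btg2*, *Nr4a1*, *Fos*, *Cd69*, *Ier2*, *Dusp4*, *Klf6*, *Ier5* and *Jund*. None was called. The list had been put together with earlier results of these data in view, so its direction is not independent evidence.

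*Nr4a1* (chromosome 15, 101254269 to 101274795), the orphan nuclear receptor NUR77 that reports T cell receptor signaling, had the smallest p of all genes. It was at 449, 885 and 1264 CPM in IL-33+ and at 319, 325 and 315 CPM in IL-33- hearts, from 475 and 99 UMIs. The IL-33- hearts lay close together, and the lowest IL-33+ heart was above them. The mean was 866 ± 408 CPM against 320 ± 5.35 CPM (SD, n = 3; log2 fold change 1.29 ± 0.27 SE, limma unadjusted p = 4.12e-05, adjusted p = 0.300). Without the low-count filter its limma adjusted p was 0.012, at the same log2 fold change of 1.29. The filter leaves the levels of *Nr4a1* as they are. It changes which genes limma draws on to moderate the variance (SE 0.25 without the filter against 0.27 with it). When 1 heart at a time was left out, the log2 fold change ranged from 0.96 to 1.70. In those fits *Nr4a1* was called only without heart 1.

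*Btg2*, an antiproliferative gene, was at 252, 635 and 547 CPM in IL-33+ and 201, 117 and 207 CPM in IL-33- hearts (log2 fold change 1.34 ± 0.32). *Fos*, a subunit of AP-1, was at 196, 549 and 301.1 CPM against 135, 167 and 101 CPM (log2 fold change 1.21 ± 0.34). *Cd69*, which retains lymphocytes in tissue, was at 217, 669 and 261 CPM against 183, 105 and 147 CPM. In each, heart 1 lay just above the IL-33- hearts and heart 2 was highest. *Egr2*, a target of receptor signaling, was read from 26 and 3 UMIs, at 32.5, 124 and 37.8 CPM against 5.45, 23.2 and 0 CPM. *Klf6*, a zinc finger factor, differed from this pattern, with heart 1 among the high values (1176, 815 and 1388 CPM against 691, 589 and 545 CPM). *Junb* was far more abundant and overlapped, at 3075, 4465 and 7428 CPM against 3867, 4069 and 4324 CPM. The summed level of the 30 genes overlapped as well, at 18651, 27443 and 31050 CPM in IL-33+ and 18771, 18357 and 19630 CPM in IL-33- hearts, so by the sum heart 1 lay within the range of the IL-33- hearts.

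**Figure D3:**
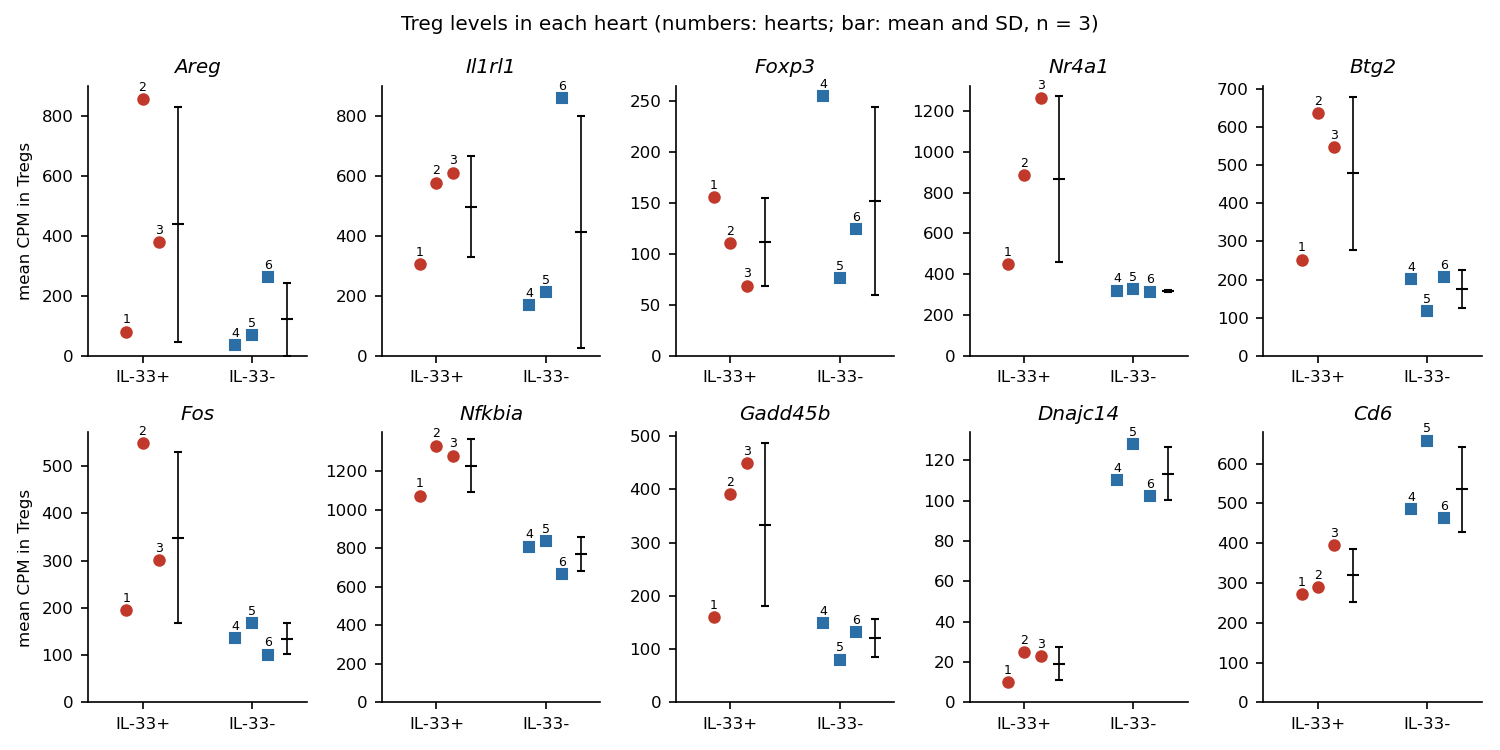
Mean level (CPM, y axis) in the Tregs of each heart for 10 genes; circles are IL-33+ and squares IL-33- hearts, with the heart number above each, and the bars show mean and SD (n = 3). *Areg*, *Il1rl1* and *Foxp3* overlapped between the groups, and *Nr4a1*, *Btg2*, *Fos*, *Nfkbia* and *Gadd45b* were higher and *Dnajc14* and *Cd6* lower in all 3 IL-33+ hearts.

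How far the 30 genes leaned on single hearts or on the cells counted was read from the same fit. Without heart 1, 18 reached an unadjusted p of 0.05, and without heart 2 this was 8 of 29. Over all genes tested, leaving out 1 heart gave 285 to 405 genes at such a p in either direction. With all hearts, 3499 of all 7275 genes had a fold change above 0. Without heart 3, 24 of the 30 listed genes still had a fold change above 0. Without the ILC2-marked cells it was 28 of 29, with a median of 0.64. Among Tregs with a *Foxp3* UMI (3 to 18 cells a heart) 24 of the genes could be tested, and 15 were above 0, with a median of 0.23.

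Heat shock genes, which respond to stress of the cell, were higher beside them: 11 of 12 had a fold change above 0, beside 3499 of all 7275 genes, and the hearts did not overlap for *Dnajb1*, *Dnaja1* and *Hspa8*, all higher, beside 4.04% of all genes. *Hspa8* was at 921, 948 and 2155 CPM in IL-33+ and 833, 888 and 890.3 CPM in IL-33- hearts. The summed level of the 12 genes was 5394, 5432 and 9183 CPM against 5305, 5334 and 4821 CPM, so it was heart 3 that stood out. Without heart 3 only 5 of 11 heat shock genes were above 0. The summed level of 7 markers of NK cells and CD8 T cells was also higher, at 267, 191 and 670.5 CPM against 118, 116 and 128 CPM. *Gzma* supplied 187 of the UMIs, 144 of them in heart 3, and *Cd8a* 25, 18 of them in heart 3. *Klra8* and *Klre1* gave 15 UMIs each, *Cd8b1* 8, *Ncr1* 2 and *Klrb1c* 1 in all Tregs. Of 4 tested, the hearts did not overlap for *Klra8* and *Gzma*, both higher, beside 4.04% of all genes. Macrophage markers summed to 123 to 247 CPM, B cell markers to 103 to 230.1 CPM, neutrophil markers to 12.4 to 170.1 CPM, fibroblast markers to 330 to 519 CPM, endothelial markers to 40.4 to 147 CPM and cardiomyocyte markers to 0 to 19.0 CPM over the hearts. Their part in the levels of the immediate early genes was not tested.

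Genes of the NF-kB pathway and survival showed a narrower pattern. Of 24 tested, 6 reached an unadjusted p of 0.05, all with the higher level in IL-33+ hearts, beside 2.65% of all genes. In 6 the hearts did not overlap, again all higher, beside 4.04% of all genes: *Gadd45b*, *Nfkbid*, *Rel*, *Nfkbia*, *Traf1* and *Pim1*. The median over the 24 was 0.23. *Nfkbia*, the inhibitor IkBa that NF-kB itself induces, was at 1073, 1331 and 1280 CPM against 807, 835 and 667 CPM (log2 fold change 0.67 ± 0.20). *Nfkbid*, a nuclear IkB, was at 150, 179 and 209 CPM against 77.1, 68.0 and 60.9 CPM (log2 fold change 1.26 ± 0.36). *Rel*, the subunit c-Rel that Tregs depend on, was at 308, 411 and 561 CPM against 213, 219 and 215 CPM (log2 fold change 0.91 ± 0.28). *Gadd45b*, an NF-kB target, was at 160, 391 and 449 CPM against 149, 80.5 and 132 CPM. The limma adjusted p of these 4 ranged from 0.481 to 0.707. *Tnfaip3*, encoding the inhibitor A20, was among the most abundant of the list and overlapped.

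Whether this difference was one that other T cells of the same hearts also had was tested with Tem/eff and Tcm cells, as the difference of the 2 fold changes within hearts. All 3 types came from the same 6 hearts. For the 30 immediate early genes the median log2 fold change was 0.67 in Tregs, 0.12 in Tem/eff and 0.02 in Tcm cells. Against Tcm cells 0 of 6820 genes were called (0%), and 4.49% reached an unadjusted p of 0.05. Of 28 tested immediate early genes, 9 had such a p with the larger fold change in Tregs, beside 2.39% of all genes, and 0 the reverse. This number was 5 without heart 2. Over all genes, leaving out 1 heart gave 238 to 364 at such a p in either direction. For the NF-kB and survival list it was 5 of 24. *Nfkbia* differed by 1.06 ± 0.26, *Rel* by 1.47 ± 0.37, *Gadd45b* by 1.87 ± 0.49 and *Btg2* by 1.56 ± 0.39 on the log2 scale (SE; limma adjusted p = 0.636 for all 4). *Nr4a1* was higher in IL-33+ hearts in both, with a log2 fold change of 1.29 in Tregs and 0.65 in Tcm cells. The lists were written with earlier results of these data in view, and these genes were named for their Treg values. Such a choice favors a larger fold change in Tregs than in Tcm or Tem/eff cells. The counts against either type are therefore not independent evidence of a difference between the types.

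Against Tem/eff cells 0 of 7218 genes were called (0%) and 334 (4.63%) reached an unadjusted p of 0.05. Of the 30 immediate early genes 6 had such a p with the larger fold change in Tregs, beside 2.30% of all genes, and this number was 1 without heart 2. Over all genes, leaving out 1 heart gave 258 to 374 at such a p in either direction. *Areg* differed by 2.01 ± 0.62 (SE), with a log2 fold change of 1.65 in Tregs and -0.36 in Tem/eff cells (limma adjusted p = 0.967). It could not be tested against Tcm cells. A difference between Tregs and these types was thus not shown for any single gene.

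**Figure D4:**
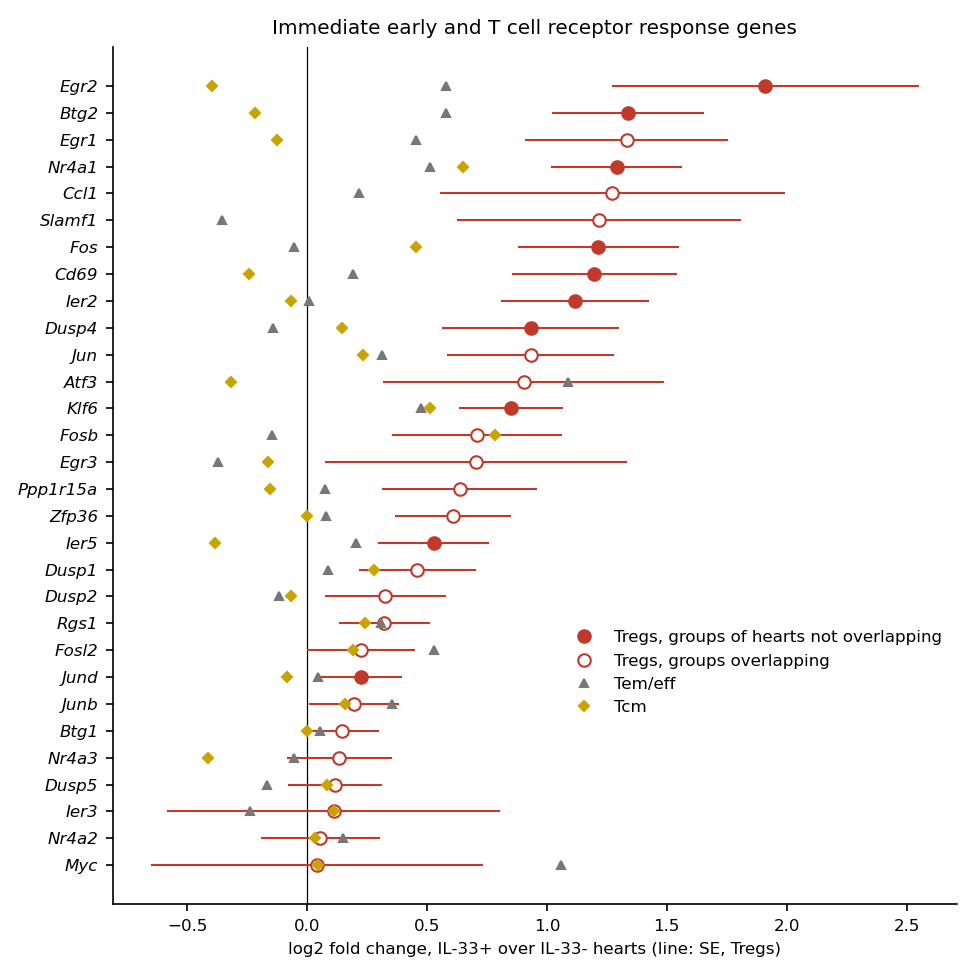
Log2 fold change of IL-33+ over IL-33- hearts (x axis) for 30 immediate early and T cell receptor response genes in Tregs (circles with SE, filled where the hearts of the groups did not overlap), Tem/eff cells (triangles) and Tcm cells (diamonds). All 30 circles lie right of 0, with a median of 0.67, while the other types scatter on both sides of it.

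Genes that were lower in the Tregs of IL-33+ hearts formed no listed group. The 5 with the smallest p among those that did not overlap were *Dnajc14*, a chaperone of the endoplasmic reticulum, *Hmces*, which shields abasic DNA sites, *Slc25a28*, a mitochondrial iron importer, *Lyn*, a Src family kinase, and *Brpf1*, a histone acetylation scaffold. *Dnajc14* was at 9.94, 24.9 and 22.8 CPM in IL-33+ and 110.2, 128 and 102 CPM in IL-33- hearts, from 10 and 33 UMIs (log2 fold change -2.12 ± 0.49 SE, limma adjusted p = 0.323). The separation was wide, but each of these 5 genes rested on at most 49 UMIs in a group. *Cd6*, a receptor that tunes T cell receptor signaling, was better covered, at 272, 289.7 and 396 CPM against 486, 658 and 463 CPM (log2 fold change -0.73 ± 0.25). *Hist1h1c*, a linker histone, and *Hpcal1*, a calcium sensor, completed the 5 higher genes with the smallest p, at log2 fold changes of 1.60 and 1.63. For *Hpcal1* the value without the ILC2-marked cells was 1.00.

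The other lists held few separated genes, to be read beside the 4.04% of all genes separated as higher and 5.98% as lower. Of 18 tested genes of the T cell receptor complex and its signaling, *Cd28* (849, 780 and 877 CPM against 657, 383 and 484 CPM) and *Lcp2* were higher and *Cd6* and *Zap70* lower. In glycolysis and lipid handling *Plin2*, which coats lipid droplets, was higher (132, 44.5 and 57.1 CPM against 26.7, 20.5 and 0 CPM, from 34 and 5 UMIs), *Pgk1* was higher and *Eno1* lower, of 19 tested. *Slfn2* was the one separated gene of 14 central and naive-like genes, *Stmn1* (20 and 3 UMIs) of 9 cell cycle genes, and *Cxcr3* (6 and 13 UMIs, lower) of 18 homing genes. Helper fate genes (13 tested) and cytokine receptor genes (22 tested) held none. In all of these lists 0 genes were called.

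Finally, Tregs with and without a *Foxp3* UMI were compared within each heart, since 212 of 263 lacked one at this depth. Hearts held 3 to 18 Tregs with a *Foxp3* UMI (51 in all, median 2734 UMIs) and 212 without (median 2873 UMIs). Of 685 genes read from at least 200 UMIs, limma with the heart as a block called 8 as higher (1.17%) and 3 as lower (0.438%) in cells with a *Foxp3* UMI. *Ctla4* rose from 1177 ± 276 CPM to 2805 ± 840 CPM (SD, n = 6 hearts; log2 fold change 1.23 ± 0.17 SE, adjusted p = 0.00575), and *Tnfrsf9*, encoding 4-1BB, from 382 ± 195 CPM to 1209 ± 244 CPM (1.79 ± 0.25, adjusted p = 0.00575). *Ikzf2* rose from 514 ± 157 CPM to 1583 ± 612 CPM and *Tnfrsf4* from 638 ± 98.8 CPM to 1204 ± 158 CPM. *Cd2*, *Ly6e*, *Hopx* and *S100a6* rose as well, and all 8 were higher in 6 of 6 hearts, as were 26 of all 685 genes (3.8%). *Ctla4*, *Ikzf2* and *Tnfrsf4*, 3 of the 6 markers of the label, were among the 8. The label was drawn from the expression of these same cells, so the calls of its markers do not test the label.

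The 3 genes called as lower were *Bhlhe40*, *Jund* and *Cxcr6*. *Bhlhe40*, a transcription factor of effector T cells, fell from 1329 ± 274 CPM to 560.0 ± 157 CPM (log2 fold change -1.26 ± 0.19 SE, limma adjusted p = 0.00617), and *Jund* from 1815 ± 195 CPM to 1086 ± 154 CPM. *Cxcr6*, the chemokine receptor of tissue lymphocytes, fell from 697 ± 273 CPM to 146 ± 124 CPM (log2 fold change -2.74 ± 0.59). The cells without a *Foxp3* UMI therefore did not have the same average profile as those with one. *Il2ra*, *Tnfrsf18*, *Gata3* and *Cd4* were not called. Without the ILC2-marked cells, of which 15 lay in the arm without a *Foxp3* UMI, 10 of these 11 genes were still called.

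**Figure D5:**
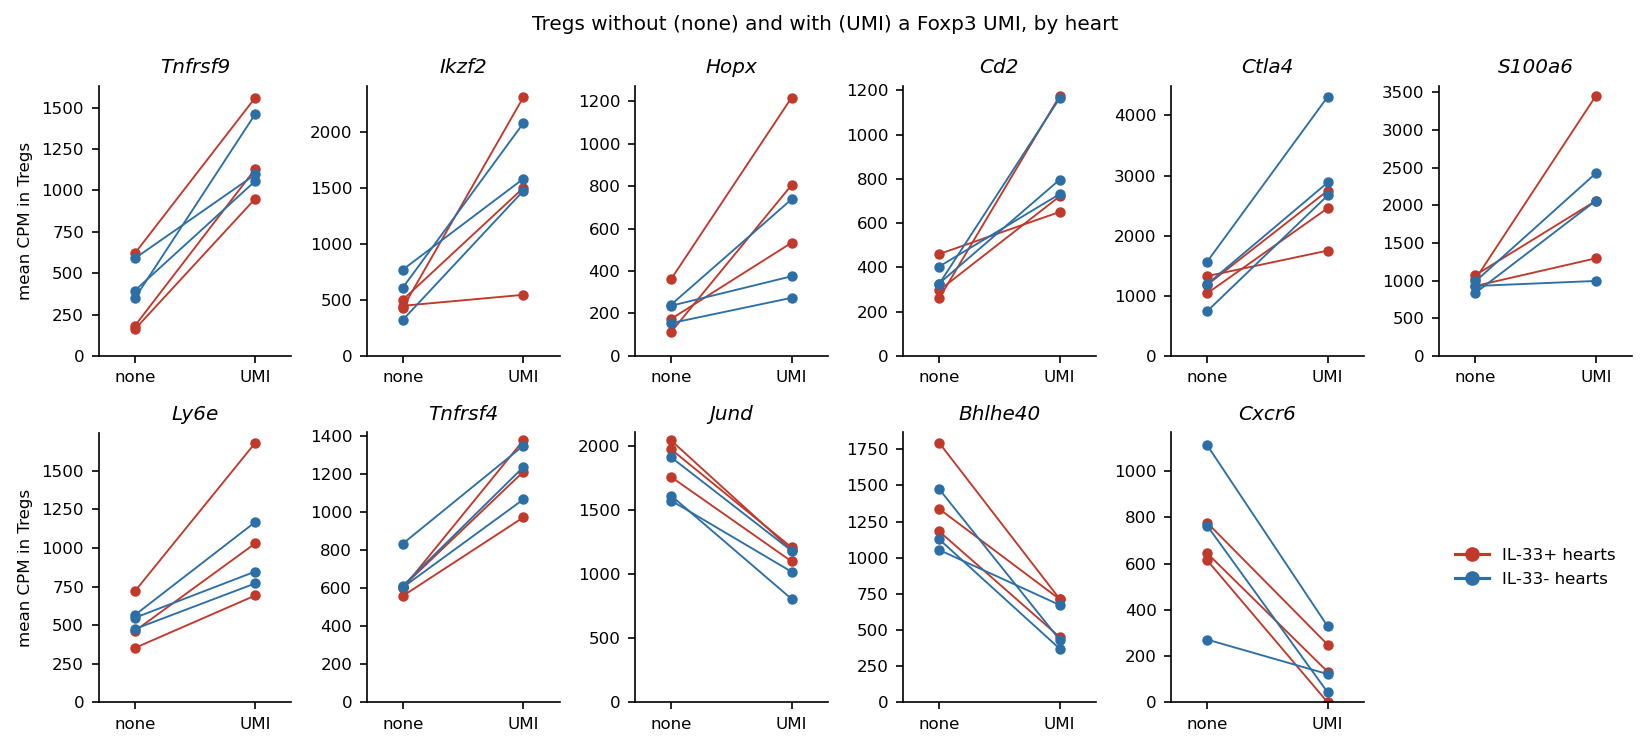
Mean level (CPM, y axis) in Tregs without (none) and with (UMI) a *Foxp3* UMI for the 11 called genes; each line is 1 of 6 hearts, red for IL-33+ and blue for IL-33-. The 8 genes called as higher rise in 6 of 6 hearts, and *Jund*, *Bhlhe40* and *Cxcr6* were called as lower.

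The same comparison by *Il1rl1* set 40 Tregs (2 to 16 a heart) against 223. Of 684 genes, 6 were called as higher (0.877%) and 2 as lower (0.292%) in cells with an *Il1rl1* UMI. *Gata3* rose from 333 ± 103 CPM to 2499 ± 1074 CPM (log2 fold change 2.83 ± 0.26 SE, limma adjusted p = 0.000363), and *Rora*, a nuclear receptor of tissue Tregs and ILC2, from 561 ± 181 CPM to 1995 ± 788 CPM. *H2afz*, *Kdm6b*, a histone demethylase, *Nfkb1* and *Ctla2a* rose as well. The 6 genes were higher in 6 of 6 hearts, as were 26 of all 684 genes (3.8%). *Lag3*, a coinhibitory receptor, fell from 879 ± 234 CPM to 102 ± 132 CPM, and *Maf* from 1620 ± 182 CPM to 695 ± 351 CPM. The arm with an *Il1rl1* UMI held 14 of the 16 ILC2-marked cells. Without them, when the smallest arm was 1 cell, 4 genes were called, all among the 8: *Gata3* (log2 fold change 2.20), *Rora* (1.47), *H2afz* (1.31) and *Kdm6b* (1.29). Of the calls that were lost, *Lag3* kept a fold change of similar size (-4.07, limma adjusted p = 0.162), *Nfkb1* (0.59) and *Maf* (-0.83) were nearer to 0, and *Ctla2a* turned to -0.59. *Areg* had a log2 fold change of 1.86 with and 0.39 without the ILC2-marked cells, called in neither. Low genes read lower in the small arms of both comparisons on this scale, with a median log2 fold change over all genes of -0.14 for *Foxp3* and -0.22 for *Il1rl1*.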

How the data were processed

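Cells of 6 grafts were hashtagged, pooled and sequenced with 10x 3' chemistry. Per the study's methods, reads were aligned to mm10 with Cell Ranger, cells were filtered and clustered in Partek Flow (version 10.0.23.0425 in the submitters' processing notes), and Tregs were named from clusters. The deposited values are log2(CPM + 1) per cell and gene on the log2 scale, made by the authors, with a table of each cell's heart, graft group and type. Back-transformed values gave whole UMIs (99.9% of low values within 0.05 of a whole number), except for 22 symbols, none of them named in the text. Deposited cells held 1500 to 14977 UMIs. The study removed potential doublets by limits on counts and genes, and no further doublet caller was run here.

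CPM were averaged over the Tregs of a heart, and log2(CPM + 10) was tested with limma 3.58.1 (R 4.3.3), for genes with at least 10 UMIs over the hearts and a UMI in at least 3 of them, with Benjamini-Hochberg adjustment and a threshold of 0.05. A fold change on this scale understates that of low genes. Groups were compared as 3 against 3 hearts. Cells with and without a UMI were compared with the heart as a block, for genes with at least 200 UMIs in Tregs, a limit set after simulated data showed that small arms lower the log values of low genes. Shares were compared with exact permutation tests (scipy). The members and lists were chosen with earlier results of these data known. Named genes were the 6 markers, 9 genes of the study's Treg results, up to 4 genes of each list with the largest fold change among those whose hearts did not overlap, its 1 or 2 most abundant members, and the 5 higher and 5 lower genes with the smallest p among those that did not overlap; genes of the descriptive paragraphs and of the leave-one-out calls were named after their values were seen. Fits were tested on simulated hearts. Alternatives changed the pseudocount, filter, scaling, method, cells and hearts. Gene positions are from GENCODE vM21 on GRCm38. One result is not reported here.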

Additional observations from a re-analysis of the deposited data

How the results depend on the processing

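No paired analysis was possible because the hearts are numbered 1 to 6 and no number is shared between the groups. Of the gene counts, the 0 called between the graft groups became 4 without the low-count filter (*Btg2*, *Hist1h1c*, *Nr4a1* and *Spp1*) and 1 among Tregs with a *Foxp3* UMI (*Ccl5*). Leaving out 1 heart gave 0 to 8, with 8 without heart 1 and 1 each without heart 4 (*Spp1*) or heart 6 (*Hdc*). The 11 genes called by *Foxp3* became 18 without the heart block, 7 with at least 500 UMIs and 5 to 22 without 1 heart, with 5 without heart 1 and 22 without heart 2. The 8 called by *Il1rl1* became 18 with 50 CPM added, 4 without the ILC2-marked cells, in which *Ctla2a* turned to -0.59, and 2 to 12 without 1 heart, with 2 without heart 6 and 12 without heart 5. The 0 called for the difference from Tem/eff cells ranged from 0 to 1.

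Among Tregs with a *Foxp3* UMI (3 to 18 a heart), the log2 fold change between graft groups changed sign for *Foxp3* (0.18), *Fos* (-0.95), *Junb* (-0.17), *Nfkbia* (-0.15), *Hspa8* (-0.16), *Hist1h1c* (-0.15), *Slfn2* (-0.93), *Pgk1* (-0.96) and *Lcp2* (-0.69). That of *Il1rl1* turned to -0.14 without cells with 3 ILC2 markers and to -0.17 without those with 2, an alternative chosen after seeing the data. Without 1 heart, ranges that crossed 0 were -0.70 to 0.11 for *Foxp3*, -0.45 to 0.11 for *Ctla4*, -0.21 to 0.55 for *Il2ra* and -0.14 to 0.50 for *Junb*. Differences in shares that crossed 0 were -2.59 to 1.28 percentage points for Tregs among all cells, -6.69 to 1.01 for Tregs with a *Foxp3* UMI and -3.69 to 2.24 for those with an *Il2ra* UMI. The cause of these changes was not tested. *Nr4a1* stayed above 0 under each alternative, with limma adjusted p from 0.0013 without heart 1 to 0.998 without heart 5, as did *Areg*, with 0.014 to 0.998 for the same hearts. With 3 hearts a group and 25 to 98 Tregs a heart, low genes rest on few UMIs, and an exact test of shares cannot reach 0.05.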
